A study of Mus musculus with 20 samples.

Results

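In 20 libraries of endothelial cells sorted from mouse brain, 3174 regions inside protein-coding genes carried a peak of open chromatin in every library. Peaks of the 20 libraries on chromosomes 1 to 19 and X were merged wherever they overlapped by at least 1 bp, which gave 53626 regions. A region was kept if all 20 libraries had a peak in it, if it was under 2000 bp wide, if its midpoint lay inside a protein-coding RefSeq gene of mm10, and if it was more than 1000 bp from every annotated end of such a gene. These intragenic always-open regions, called intragenic regions below, made up 5.92% of all regions and 15.3% of the 20697 regions that met the same position and width rules in any number of libraries. They lay in 2115 genes, of which 1523 held a single one, and 34 lay on X. The regions were chosen by the presence of a peak in every library, so their constancy is not a finding. The widest was 1987 bp, in Tspan12, and a region of 2011 bp in Mllt10 fell outside the limit. The nearest to a gene end lay 1002 bp away, in Fbxo7.

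Open chromatin was mapped by ATAC-seq on 50000 FACS enriched cells per library: a transposase, Tn5, inserts sequencing adapters where DNA is not packed on nucleosomes. All animals were wild-type (WT) C57BL/6 mice without a named treatment: 3 female libraries and 1 male at 2 months of age, 3 and 2 at 6 months, 3 and 2 at 12 months, and 3 and 3 at 18 months. Whether a library holds 1 animal or several pooled ones is not stated, so p-values measure the spread between libraries. The labels used here do not name the surface proteins that the cells were sorted on. Library numbers fall into 3 runs, called library sets here, which the labels do not describe as batches: 3 libraries of 18 months form set 1, 1 of 2, 5 of 12 and 3 of 18 months form set 2, and 3 of 2 and 5 of 6 months form set 3.

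Open regions inside a gene are of several kinds. Some are enhancers or silencers, short stretches bound by transcription factors that act on the host gene or on a neighbour, and some are promoters of shorter transcripts or of non-coding RNAs that begin within the gene. In endothelium, factors of the ETS family such as Erg, Fli1 and Ets1, together with SOX, GATA and forkhead factors, are known to bind such regions in genes for vascular receptors, junction proteins and transporters. In the brain these genes build the blood-brain barrier, through tight junctions, selective transporters and restricted vesicle traffic.

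Intragenic regions at an annotated internal start can be shown with their sequence. The 7 windows below are examples from genes of the endothelial and barrier lists, with Ybx1 and Ccdc174 added because their regions are discussed further on. Other genes of these lists, such as Foxp1, Mef2c and Slc7a1, also had a region at an internal start and are not shown. Each is a RefSeq window of 300 bases on build GRCm38.p6 (mm10), from 250 bases before to 50 after a start, written 5′ to 3′ on the gene's strand. Capitals mark a match on either strand to GGGCGG, the core bound by SP and KLF factors, or to CCGGAAG, a core bound by ETS factors. Erg, an ETS factor that maintains endothelial identity, has its window at chr16:95459299-95459598 on the minus strand. Egfl7, a protein secreted by endothelium, has its window at chr2:26583615-26583914 on the plus strand. Tjp1 (ZO-1), which ties tight junctions to actin, has its window at chr7:65371195-65371494 on the minus strand. Cgnl1 (paracingulin), a junction protein, has its window at chr9:71771553-71771852 on the minus strand. Abcg2, a drug efflux pump, has its window at chr6:58640296-58640595 on the plus strand. Ybx1, an RNA-binding protein, has its window at chr4:119294464-119294763 on the minus strand. Ccdc174 has its window at chr6:91877803-91878102 on the plus strand.
Erg: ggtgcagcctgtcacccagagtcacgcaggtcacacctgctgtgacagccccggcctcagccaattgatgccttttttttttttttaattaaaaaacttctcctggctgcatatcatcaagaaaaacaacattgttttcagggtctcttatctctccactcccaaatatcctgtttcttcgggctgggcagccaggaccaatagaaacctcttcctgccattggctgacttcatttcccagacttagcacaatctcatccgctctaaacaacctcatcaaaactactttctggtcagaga
Egfl7: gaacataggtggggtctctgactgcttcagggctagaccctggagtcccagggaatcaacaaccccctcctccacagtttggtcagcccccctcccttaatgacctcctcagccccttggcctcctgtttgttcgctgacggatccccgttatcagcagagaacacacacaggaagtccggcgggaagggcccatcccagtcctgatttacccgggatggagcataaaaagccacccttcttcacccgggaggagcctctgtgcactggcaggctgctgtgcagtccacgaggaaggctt
Tjp1: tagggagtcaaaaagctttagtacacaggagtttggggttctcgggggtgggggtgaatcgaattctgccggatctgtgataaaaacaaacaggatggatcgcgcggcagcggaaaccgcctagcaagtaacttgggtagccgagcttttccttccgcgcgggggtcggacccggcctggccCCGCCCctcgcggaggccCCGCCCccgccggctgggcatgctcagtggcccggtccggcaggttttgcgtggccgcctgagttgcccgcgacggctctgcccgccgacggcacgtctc
Cgnl1: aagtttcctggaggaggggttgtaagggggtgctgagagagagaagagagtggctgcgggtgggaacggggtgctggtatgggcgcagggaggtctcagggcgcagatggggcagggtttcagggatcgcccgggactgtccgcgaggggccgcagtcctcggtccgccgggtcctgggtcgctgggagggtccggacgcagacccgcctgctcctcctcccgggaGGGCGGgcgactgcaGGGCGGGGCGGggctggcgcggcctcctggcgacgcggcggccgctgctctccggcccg
Abcg2: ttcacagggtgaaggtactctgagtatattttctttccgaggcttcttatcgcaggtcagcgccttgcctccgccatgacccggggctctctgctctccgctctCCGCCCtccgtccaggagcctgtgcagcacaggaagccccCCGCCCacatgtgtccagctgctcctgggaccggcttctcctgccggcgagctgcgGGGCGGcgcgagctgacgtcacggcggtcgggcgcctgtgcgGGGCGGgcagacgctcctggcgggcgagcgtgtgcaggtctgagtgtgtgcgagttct
Ybx1: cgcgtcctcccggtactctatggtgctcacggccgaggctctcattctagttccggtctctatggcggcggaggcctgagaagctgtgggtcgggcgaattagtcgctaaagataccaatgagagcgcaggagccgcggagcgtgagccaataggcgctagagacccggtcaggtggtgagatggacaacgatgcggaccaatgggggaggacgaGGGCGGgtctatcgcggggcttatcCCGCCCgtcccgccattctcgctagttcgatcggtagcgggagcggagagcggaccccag
Ccdc174: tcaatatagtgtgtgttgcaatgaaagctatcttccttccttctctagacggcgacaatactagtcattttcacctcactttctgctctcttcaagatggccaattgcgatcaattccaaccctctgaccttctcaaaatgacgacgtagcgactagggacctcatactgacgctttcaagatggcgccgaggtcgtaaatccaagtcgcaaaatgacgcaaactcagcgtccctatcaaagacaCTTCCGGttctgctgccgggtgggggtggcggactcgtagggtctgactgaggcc

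The windows of Erg and Egfl7 hold neither GGGCGG nor CCGGAAG, and their ratio of observed to expected CpG is 0.275 and 0.311. Matches to CAGGAA, a shorter ETS core, are not marked and occur in Erg, Egfl7, Cgnl1 and Abcg2. The window of Erg also matches AGATAA, a core bound by GATA factors. Those of Tjp1, Cgnl1, Abcg2 and Ybx1 hold 2, 3, 4 and 2 matches to GGGCGG, with ratios of 0.972, 0.799, 0.832 and 1.09. The window of Ccdc174 has a single match, to the ETS core, at a CpG ratio of 0.915. The median summit lay 117.5 bp upstream of the start in Erg and 232.5 bp downstream of it in Tjp1.

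Many intragenic regions held a start site, a larger share than less constant regions in the same position. On the chromosomes that the table of starts covers, 669 of 3064 (21.8%) held at least 1 RefSeq start, 615 of them a protein-coding one and 113 a long non-coding RNA. The share was 3.78% of 8721 regions inside genes called in 3 to 17 libraries, 80.2% of always-open regions within 1000 bp of a gene end and 7.25% of always-open regions between genes. The table of starts held the host gene for 2525 of the 3064 and for 7232 of the 8721. Starts of the other host genes could not be counted. The intragenic regions had a median width of 978 bp and the regions of 3 to 17 libraries one of 516 bp, and the part of width in this gap was not tested. Of 6671 starts that lie inside genes away from their ends, 861 (12.9%) fell in an intragenic region and 4861 (72.9%) in no peak of any library. In a further 720 the start fell in a region of 1 to 19 libraries.

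The starts in intragenic regions were richer in CpG and in GGGCGG than internal starts without a peak, and so were those in other always-open regions. Their windows had a median GC content of 63% and a median observed to expected CpG ratio of 0.773, against 49.3% and 0.251 for internal starts with no peak. The CpG ratio exceeded 0.6 in 73.3% of them, in 10.7% of the windows without a peak and in 36% of all 32585 RefSeq windows. GGGCGG on either strand was present in 66.9%, against 17.1% without a peak and 35.9% of all windows. CCGGAAG was present in 13.7%, 2.53% and 8.92%, in the same order. The motif AGATAA, bound by GATA factors, went the other way, with 4.76%, 13.5% and 11.2%. The shorter ETS core CAGGAA, which holds no CpG, was about even, at 30.1%, 31.7% and 30.4%. ACAATGG, a SOX motif, gave 2.67%, 4.57% and 3.68%, and TGTTTAC, a forkhead motif, gave 2.67%, 3.91% and 3.67%. The 229 internal starts in another always-open region were as rich or richer, with 64.7% GC, a CpG ratio of 0.799 that exceeded 0.6 in 79.5%, GGGCGG in 68.6% and CCGGAAG in 17%. The 720 in regions of 1 to 19 libraries lay between, with a ratio over 0.6 in 46.4% and GGGCGG in 47.1%. These letters follow base composition, and a match is not a bound site.

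Summits sat on the upstream side of these starts. In the 521 intragenic regions with exactly 1 start, the median over libraries of the summit lay at a median of -39.5 bp, upstream in 70.4% and within 100 bp in 61.8%. A microRNA hairpin overlapped 4 intragenic regions, in Ctdspl (Mir26a-1), Eml2 (Mir330), Ppm1h (Mir8104) and Syna (Mir7228).

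**Figure D1:**
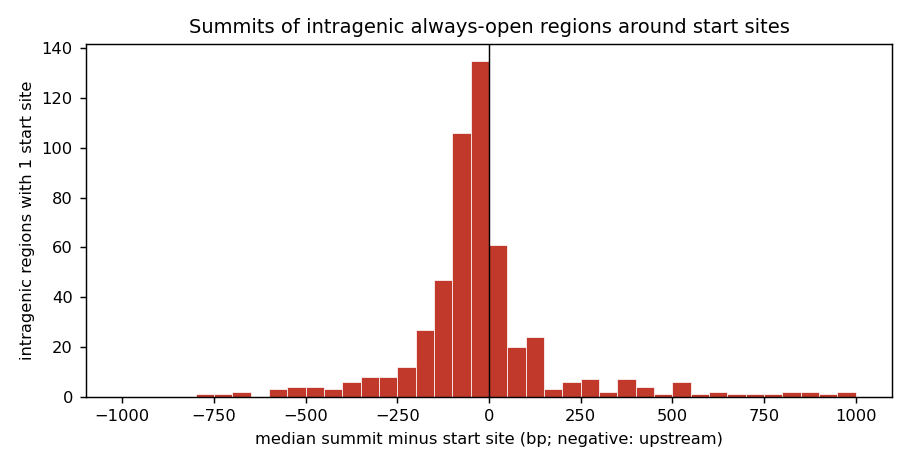
Number of intragenic always-open regions with 1 RefSeq start (vertical axis) by the distance in bp from that start to the region's median summit (horizontal axis, bins of 50 bp, negative values upstream in the direction of transcription). The histogram peaks just upstream of the start, with its median at -39.5 bp.

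Intragenic regions lay more toward the 5′ part of their genes, as a description. Over the 2525 whose gene's strand is known, the median position was 39.9% of the way along the gene, and 31.8% lay in the first 25% of the gene's length and 17.3% in the last. For regions of 3 to 17 libraries in the same position the values were 46.9%, 25.1% and 20.9%. The annotation used here gives gene ends and starts only, so exons, introns and UTRs were not told apart. Gse1 held the most intragenic regions, 10 in 353 kb. Arhgap26, Foxp1, Ptprg, Sgms1 and Tcf4 held 8 each, and Ctif, Dlc1, Extl3 and Fry held 7 each. Foxp1 and Tcf4 encode transcription factors, Arhgap26 and Dlc1 proteins that switch off small GTPases, and Ptprg a receptor phosphatase. Extl3, which starts heparan sulphate chains, held its 7 in 97.8 kb.

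Genes of endothelial identity and of the barrier held intragenic regions more often than genes at large. Of 19190 protein-coding genes longer than 2000 bp, 2115 (11%) held at least 1. The share grows with length, from 1.1% in the shortest 25% of genes to 25.7% in the longest 25%, and no list was matched on length. Among endothelial identity genes, 12 of 19 held one, including Kdr and Flt1 (receptors for VEGF), Tek (the angiopoietin receptor), Eng (a TGF-β co-receptor), Vwf (von Willebrand factor) and Pecam1 (a junction adhesion protein). Cdh5, Tie1, Robo4, Ly6a, Adgrl4, Cd34 and Nos3 held none. Among endothelial transcription factors 17 of 29 held one, with 4 each in Erg and Ets1, 3 each in Fli1 and Mef2c, and 2 in Gata2. Sox7, Klf2, Klf4 and Foxo1, of 7.03, 2.59, 5.34 and 81.8 kb, held none. The distance rule leaves little room in a gene as short as Klf2.

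Junction and transporter genes held regions in part. Among tight and adherens junction genes 9 of 19 held a region, with 6 in Tjp1, 5 in Cgnl1 and 3 in Ocln (occludin). Among barrier transporters 12 of 22 did, with 6 in Slc6a6 (the taurine transporter), 5 in Atp10a (a lipid flippase) and 4 in Insr (the insulin receptor). Slc2a1 (the glucose transporter GLUT1) and Abcb1a (P-glycoprotein), which mark barrier endothelium, held none. Mfsd2a, the lipid transporter that restrains transcytosis, held 1, and 6 of 14 genes of the transcytosis list held one.

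Signalling lists gave shares from 37.5% to 65%. In Wnt and β-catenin signalling, which induces and maintains the barrier, 13 of 20 genes held a region, with 4 in the co-receptor Lrp5, 3 in the receptor Fzd6 and 1 in Tspan12, a co-activator of Norrin signalling. The receptor Fzd4 (5.75 kb) and Ctnnb1 (β-catenin, 27.1 kb) held none. For VEGF and angiopoietin signalling the count was 9 of 18, for Notch 6 of 16, for TGF-β and BMP 11 of 22, for basement membrane and integrins 12 of 22, for cerebral cavernous malformation and bleeding risk 6 of 15 and for the circadian clock 7 of 17. Markers of arteries, capillaries and veins gave 5 of 17 and senescence genes 3 of 16. In inflammation and leukocyte adhesion the count was 1 of 18, in Icam2.

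Marker lists of other cells ranged from no gene to 30% of their genes, beside the 11% of all genes. None of the 12 pericyte, 12 microglia and 12 neuron markers held an intragenic region. The astrocyte list gave 1 of 10 (Gfap), the oligodendrocyte lineage 1 of 12 and fibroblast and ependymal markers 1 of 10, both through Pdgfra, all near the background. Smooth muscle markers, at 3 of 10 (Mylk, Smtn and Synpo2), were above it. The lists were chosen with earlier results of these data known, so the counts describe and do not test. Peaks at the ends of these genes do not enter them, and the share of other cells in the sorted samples was not tested.

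**Figure D2:**
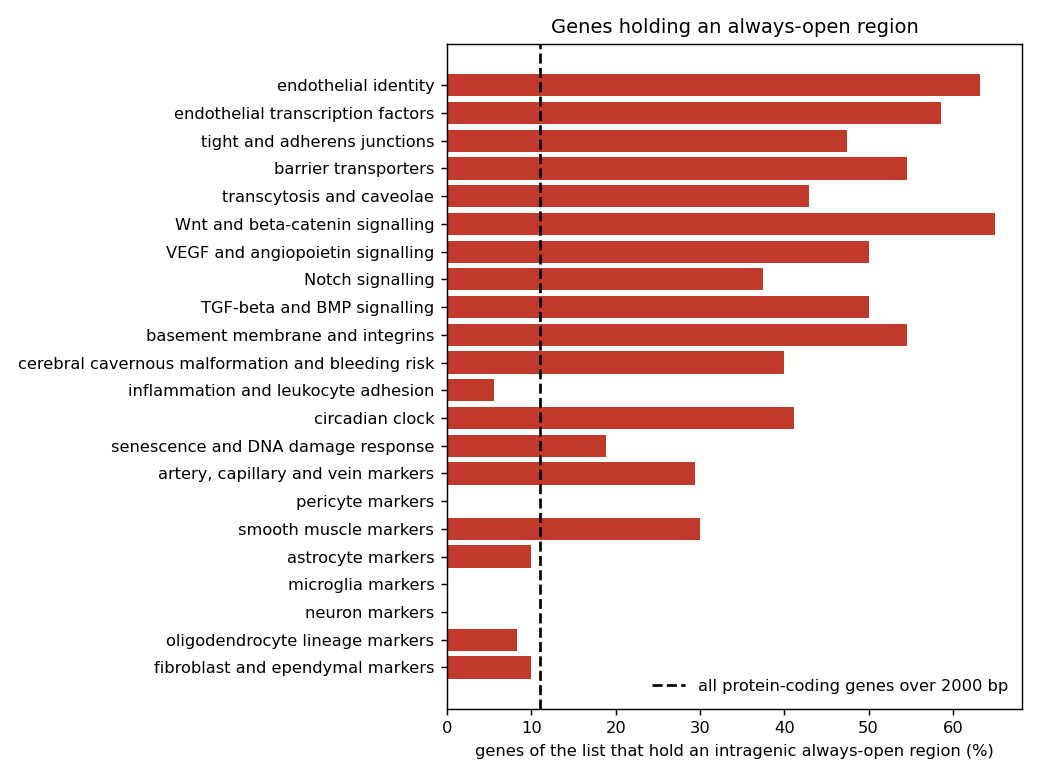
Percent of genes over 2000 bp that hold at least 1 intragenic always-open region (bars, horizontal axis) for each of 22 gene lists (vertical axis), with the 11% of all protein-coding genes as a dashed line. Endothelial, barrier and signalling lists lie above the line, and pericyte, microglia and neuron markers are at 0.

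The height of a peak was described in 2 ways. Fold is the authors' enrichment of the summit over the local background, so at a given pileup it is lower where that background is higher. What raises the local background was not tested. Summit pileup is the number of fragments stacked at the summit, recovered as a whole number from the fold and p-value of each peak. Since both are on each library's own scale, they were turned into percentiles within a library over the same 12536 regions, which are all those called in 20 libraries and under 2000 bp wide. Libraries ran from 19749 to 38040 peaks on the autosomes and X, and their median pileup in intragenic regions from 17 to 75. 6 months replicate 3 had the fewest peaks and the lowest pileup, and its ranks had a median rank correlation of 0.595 with the other libraries, against 0.693 to 0.821 for the rest. Peaks on Y numbered 342 to 1833 in the males and 0 to 41 in the females.

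By fold, intragenic regions were lower than the other always-open regions in every library. Their median fold was 7.67 ± 0.862 (SD, n = 20), 1.21 below always-open regions at gene ends (8.88 ± 1.04) and 0.43 below those between genes (8.1 ± 0.908). Their median percentile was 38.7, against 57.6 at gene ends and 45.6 between genes. Each of these differences held in 20 of 20 libraries (two-sided sign-flip permutation test, p = 1e-05, the smallest the 100000 resamples can give, adjusted p = 1.2e-05 over 6 comparisons). Median peak width was 652 bp, 72.5 bp below gene ends in 20 of 20 libraries (permutation test, adjusted p = 1.2e-05) and 5.53 bp below regions between genes in 17 of 20 (p = 0.00079).

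By pileup the order was different. The intragenic regions' median pileup percentile was 47.4, still 5.41 below gene ends (lower in 18 of 20 libraries, permutation p = 6e-05), but 1.31 above regions between genes (higher in 11, lower in 2, tied in the rest, p = 0.00946). Local background is given relative to the library's implied background, a low percentile of the local background over its peaks. This ratio was 1.86 in intragenic regions, 0.175 above gene ends and 0.169 above regions between genes. It was higher by more than 0.01 in 19 of 20 and in 20 of 20 libraries (permutation p = 1e-05 for both). The comparison by pileup was added after the data had been seen.

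**Figure D3:**
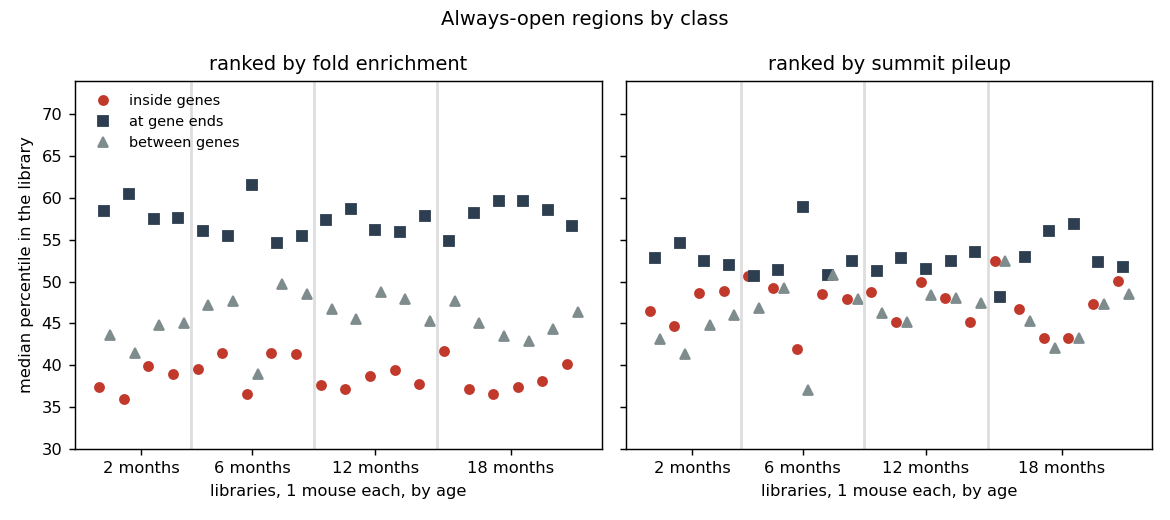
Median percentile of 3 classes of always-open regions (vertical axis) in each of 20 libraries ordered by age (horizontal axis), ranked by fold on the left and by summit pileup on the right, with points set slightly apart. By fold the intragenic regions (circles) are the lowest in every library, and by pileup they overlap the regions between genes. The axis label names a single mouse per library, which the sample labels do not state.

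The gap between the 2 measures was widest in endothelial identity genes, among the lists with 5 or more regions. The 17 intragenic regions in endothelial identity genes had a median percentile of 20.7 by fold and 75.4 by pileup, where all 3174 had 38.9 and 46.2. The list's median was below that of all intragenic regions by fold in 20 of 20 libraries, at 10.1 to 40.2, and above it by pileup in 20 of 20, at 66.5 to 88.7. Local background was more than 1.5 times the library's implied background in 94.1% of the list and in 65.5% of all. Barrier transporters gave 21.8 and 75.1, endothelial transcription factors 23 and 58.7, and TGF-β and BMP signalling 17.1 and 58.7. Smooth muscle markers, with 6 regions, were at 29.9 by fold and 25 by pileup, below all intragenic regions by pileup in 20 of 20 libraries. Wnt and β-catenin signalling was at 26.7 and 47.9, above all intragenic regions by pileup in 11 of 20.

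Receptors of the endothelial identity list show the gap one by one. The region of Flt1 at chr5:147640780-147641919 was at the 20.4th percentile by fold and the 97th by pileup. Its median pileup was 102 (31 to 144) and its local background was 5.34 times the library's implied background. The other regions of Flt1 were at 2.88 and 32.7 by fold and at 73.1 and 90.4 by pileup. By fold, the first was at 19.5 to 25.2 (median 20.5) at 2 months, 14.7 to 57.6 (29.9) at 6, 10.7 to 32 (21.5) at 12 and 8.31 to 21.2 (15.3) at 18 months, groups that overlap (adjusted p = 0.241 for age, limma). Tek held a region at chr4:94745767-94747231 that was at 61.4 by fold and 99 by pileup, with a median pileup of 110 (36 to 154), and a second at 13.6 and 79.5. In Eng the regions were at 23.1 and 97.2 and at 2.79 and 19.2, so 1 of them was low by both measures. Kdr was at 20.7 and 53.8, and Vwf was at 72.5 and 68.3. None of the regions of these 5 genes was called with age.

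Transcription factors, junction proteins and transporters varied within the gene. In Slc6a6 the 6 regions were at 6.75 to 41.1 by fold and at 83.3 to 99.8 by pileup, and the strongest, at chr6:91728969-91730475, had a median pileup of 118. The 4 regions of Erg were at 2.09 to 14.1 by fold and at 76.2 to 92.7 by pileup, and the 1 at the internal start shown above was at 3.96 and 92.7. The 3 regions of Fli1, an ETS factor related to Erg, were at 4.86 to 37.3 by fold and 10.9 to 60.6 by pileup, below those of Erg by pileup. Ets1, of the same family, had 4 at 15.3 to 56.2 and 55.2 to 84.1. Tjp1 had 6, from 9.87 at its internal start to 81 by fold and from 28.2 to 93.5 by pileup. Ocln had 3: 1 was at 5.61 by pileup with a background ratio of 1.08, and the others were at 82.8 and 92.8 with ratios of 4.35 and 3.14. Cgnl1, with 5, stayed between 24.1 and 59.1 by fold and 32.2 and 67.2 by pileup. The region of Mfsd2a was at 27.1 and 95.6, that of Lef1, a transcription factor of Wnt signalling, at 66.5 and 76.7, and those of Col4a1, a collagen of the basement membrane, at 44.3 and 91.8 and at 38.4 and 37.2. A pair of neighbouring regions of Dlc1, at chr8:36610419-36610979 and chr8:36612542-36613055, were among the 5 lowest of all intragenic regions by fold (0.371 and 0.307) and at 81.2 and 78.5 by pileup. The 1 region in Gfap, the astrocyte filament protein, was at 31 by fold and 5.96 by pileup, with a background ratio of 1.

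**Figure D4:**
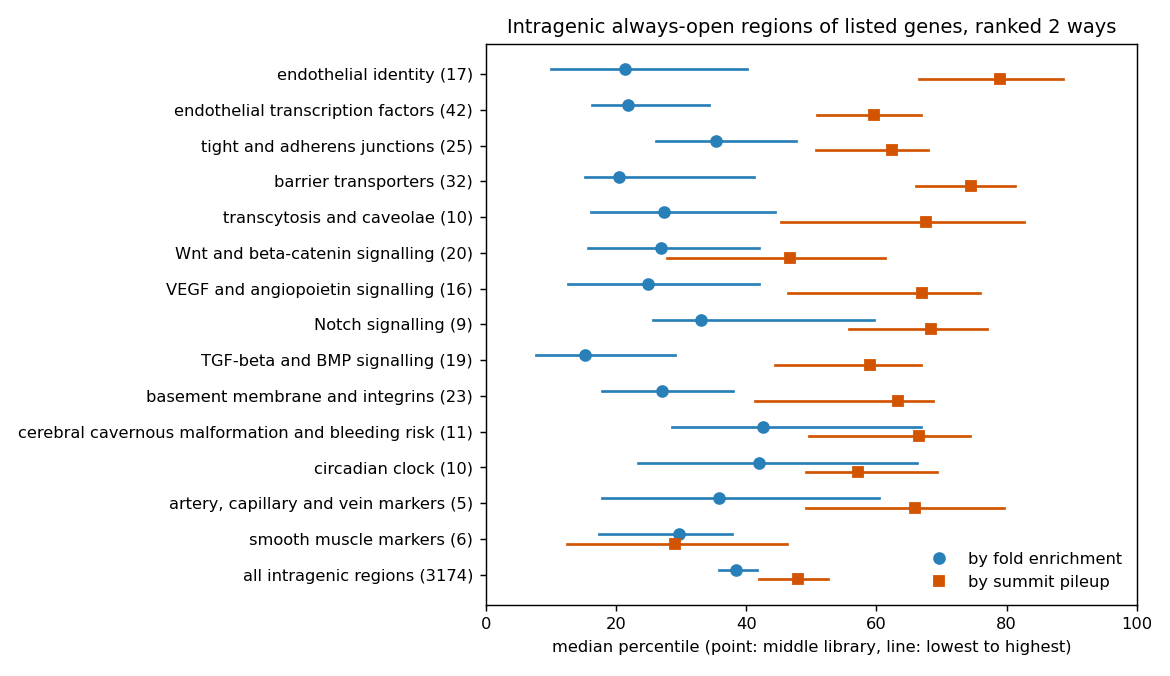
Median percentile over the intragenic regions of each gene list (number of regions in brackets), by fold (blue circles) and by summit pileup (orange squares). Points give the middle of 20 libraries and lines the lowest to the highest; in endothelial identity genes the lines run from 10.1 to 40.2 by fold and from 66.5 to 88.7 by pileup.

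The regions highest by fold were of another kind. The 10 with the highest median percentile lay in Mrps27, Ybx1, Zfp286, Uggt2, Cfap97, H2-DMa, Snapc3, Cntrl, 1110004F10Rik and Galm, with medians from 97.9 to 99.6, and 5 of them held a start. Mrps27 encodes a mitochondrial ribosomal protein, Snapc3 a subunit that starts small nuclear RNA genes, and H2-DMa a chain that helps load peptides on MHC class II. Regions with a start were at a median of 43.5 by fold, against 37.4 without, and 5.68% of them reached the top 10% of the 12536 regions, against 2.25%. The lowest 5 lay in Ncoa2, Smarca2, Ptch1 and, with 2, Dlc1. The least variable rank belonged to a region of Sh3tc1 and the most variable to the region of Pdzrn4 described below, with SDs of 0.205 and 1.24 on the normal score scale defined there. The position of the summit varied between libraries by a median SD of 39.2 bp, against 37.1 bp at gene ends and 42.2 bp between genes.

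Few intragenic regions were called as changing with age, a share near that among all always-open regions. Ranks by fold were turned into normal scores (the standard normal value of the rank) and fitted against age in months with limma, and p-values were adjusted over the 12536 regions. Of the intragenic regions, 40 were higher with age, 1.26% where all 12536 gave 1.2%, and 19 were lower, 0.599% where all gave 0.862% (adjusted p under 0.05). Both shares are near the background. At an unadjusted p under 0.05 (limma), 9.23% of the intragenic regions were higher with age (9.8% of all 12536) and 10.4% lower (11.2%). Ranks over a fixed set cannot show a change shared by all its regions. None of the called regions lay in a gene of the endothelial identity or transcription factor lists. These lists hold 17 and 42 intragenic regions, too few to set 0 apart from the shares above. Among 255 intragenic regions in the 128 genes of any list, 1 was higher, in the efflux transporter Abcc4, and 3 were lower, 2 in Slc6a6 and 1 in Timp3. Counts this small cannot be told apart from the shares over all 12536 regions.

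The count depended on the library sets and on single libraries. With library set in the fit, 1 intragenic region was called higher and 0 lower, none of them among the 59, although 57 of the 59 kept their sign. Within set 2 (9 libraries of 2, 12 and 18 months) 57 of the 59 sloped the same way as over all libraries, and within set 3 (8 of 2 and 6 months) 30 did. Both sets are among the libraries that made the calls, and of all 3174 intragenic regions 2363 and 1236 kept their sign in them. The 59 became 229 without 2 months replicate 4, 27 without 2 months replicate 1, 38 without 6 months replicate 4, and 17, 29, 28 and 23 without 18 months replicates 2, 3, 5 and 6. Without 6 months replicate 3 they became 33 higher and 18 lower. Ranked by pileup, 33 were higher and 36 lower, and 20 of the 59 were called again. Counts over all 12536 regions moved as well, from 151 higher and 108 lower. They were 525 and 496 without 2 months replicate 4, and 34 and 29 without 18 months replicate 2. With library set in the fit they were 1 and 2, and by pileup 92 and 150.

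Among the regions higher with age, the smallest p belonged to Atp6v0a2, a subunit of the proton pump of endosomes. Its region at chr5:124714891-124715659 was at the 38.3, 7.35, 12.7 and 34.5th percentile at 2 months, at 21.2, 1.72, 19.4, 23.9 and 16 at 6 months, at 30.7, 51.2, 55.3, 59 and 66 at 12 months and at 54.3 to 86.8 (median 68.7) at 18 months. All libraries of 18 months were above those of 2 and 6 months (adjusted p = 0.000701, limma). The 18 months and 12 months groups overlapped. Lrrk2, a kinase mutated in familial Parkinson's disease, followed at chr15:91702849-91703798. It was at 20.8, 32.2, 14 and 71.3 at 2 months, at 18.8 to 38.9 at 6 months, at 43 to 66.7 at 12 months and at 70 to 85.2 at 18 months (adjusted p = 0.00141, limma). The groups of 6, 12 and 18 months did not overlap, and 1 library of 2 months, replicate 4, lay among those of 18 months.

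Tm4sf1, a surface protein abundant in endothelium, was the third. Its region at chr3:57343934-57344886 was at 2.48 to 14.8 at 2 months, at 6.92 to 42.2 at 6 months, at 19.5 to 47.5 at 12 months and at 37.9 to 55.3 at 18 months (adjusted p = 0.0015, limma). The next were Lrrc9, Ccdc174, Clta (clathrin light chain A, of vesicle coats), Usp42 (a deubiquitinase), Cdh1 (E-cadherin), Supv3l1 (a mitochondrial RNA helicase) and Nek6 (a mitotic kinase), with adjusted p from 0.00577 to 0.0189. The regions in Lrrc9, Ccdc174, Clta and Supv3l1 held a start of the same gene, and that in Usp42 held the start of the non-coding D130017N08Rik. With library set in the fit, the adjusted p of the first 3 was 0.767, 0.355 and 0.288, and by pileup it was 0.0309, 0.0558 and 0.0395. The 40 were low by pileup and had little raised background: their median was 15.1 by pileup, against 46.2 over all intragenic regions, with a background ratio of 1.05 against 1.84.

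Among the regions lower with age, the smallest p belonged to Slc2a12, the glucose transporter GLUT12. Its region at chr10:22685614-22686002, 389 bp wide, was at 99.7, 98.5, 96.7 and 81.1 at 2 months, at 81.6, 95.6, 93.7, 99.2 and 94.2 at 6 months, at 39.4, 24.8, 69, 82.8 and 42.8 at 12 months and at 14.2 to 66.8 (median 35) at 18 months. No library of 18 months reached the lowest of 2 or 6 months (adjusted p = 1.46e-05, limma), and within set 3 the slope was near 0 (-0.00067 score units a month, against -0.154 over all). The call also held by pileup, with an adjusted p of 1.76e-06, and not with library set in the fit, with 0.124. Diaph3, a formin that builds actin filaments, was at 51.5 to 94.7 at 2 months, at 56.1 to 92.9 at 6 months, at 18.3 to 76.6 at 12 months and at 4.85 to 30.6 at 18 months (adjusted p = 0.000268, limma). The libraries of 18 months lay below all those of 2 and 6 months.

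The other 8 of the 10 smallest were 2 regions of Sntg1 (γ1-syntrophin) and 1 each in Pdzrn4, Jph1 (junctophilin 1), Slc6a6, Timp3 (an inhibitor of metalloproteinases), Kif26a and Rgs20, with adjusted p from 0.00372 to 0.0262. The region of Slc6a6 was at 41.1 to 66.7 at 2 months and at 21.3 to 35.1 at 18 months by fold (adjusted p = 0.024, limma), and by pileup its slope was 0.0248, of the opposite sign (adjusted p = 0.43). Those in Slc2a12, Diaph3 and Pdzrn4 were under 400 bp wide, as were 9 of all 3174. Those in Sntg1, Jph1 and Rgs20 lie in the first 35 Mb of chromosome 1, where 4 of 18 intragenic regions were called lower (0.862% of all 12536 regions were) and 1, in Prex2, was called higher (adjusted p = 0.0223, limma). That stretch was chosen after its values were seen. The 19 had a median pileup percentile of 61.8 and a background ratio of 3.12.

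**Figure D5:**
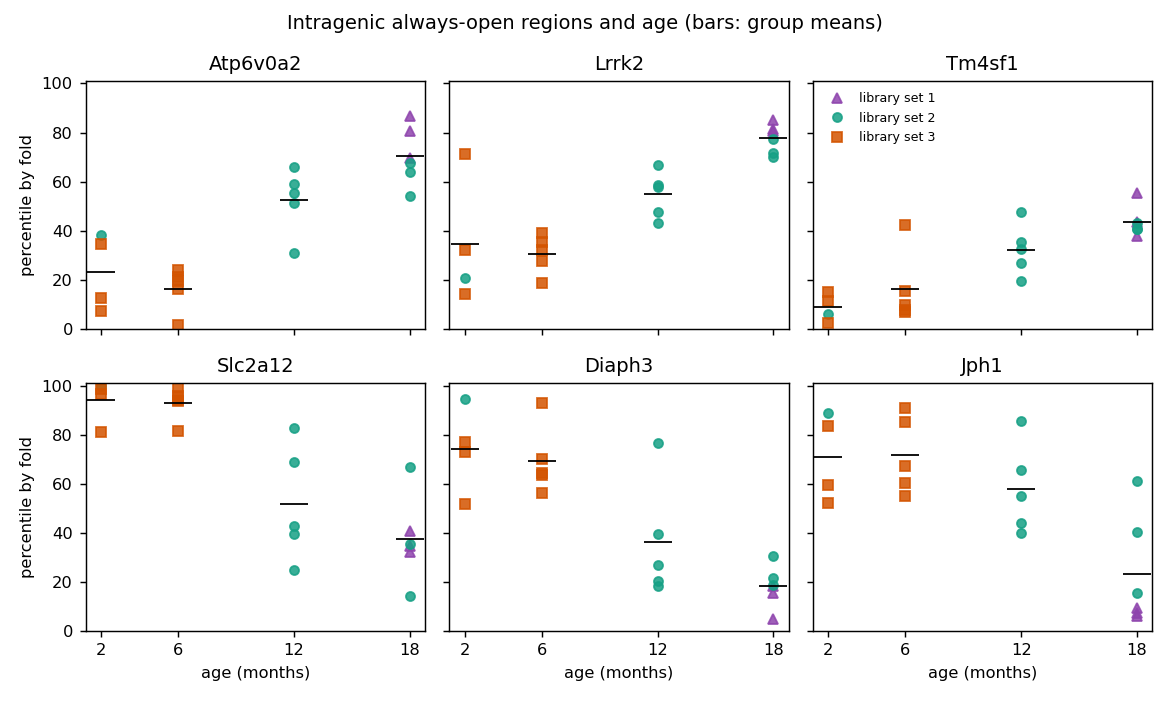
Percentile by fold (vertical axis) of 6 intragenic always-open regions against age in months (horizontal axis), 1 point per library with its library set as shape and colour, and bars for the mean of each age. The upper 3 are higher and the lower 3 lower at 18 than at 2 and 6 months, and the libraries of 2 and 6 months are mostly of set 3.

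Single ages gave few calls against 2 months. At 6 months 5 intragenic regions were higher (0.158%, where 0.0399% of all 12536 were called) and 6 were lower (0.189%, against 0.223%). At 12 months 1 was higher (0.00798% of all) and 1 lower (0.0558%). At 18 months 7 were higher (0.199% of all) and 6 lower (0.191%), led by Lrrc9, Tm4sf1 and Atp6v0a2 in one direction and by Slc2a12, Diaph3 and Pdzrn4 in the other. The comparisons share the 4 libraries of 2 months. The counts moved with single libraries. The 11 calls at 6 months became 18 without 6 months replicate 3, 0, 4 and 3 without replicates 2, 4 and 5 of that age, and 2 and 6 without 2 months replicates 2 and 3. The 13 at 18 months became 3, 5, 8 and 49 without 2 months replicates 1 to 4, 21 without 6 months replicate 3, and 8, 5 and 8 without 18 months replicates 1, 2 and 6. Counts over all 12536 regions moved too. At 6 months 5 higher and 28 lower became 12 and 66 without 6 months replicate 3, and 0 and 3 without replicate 2. At 18 months 25 and 24 became 120 and 87 without 2 months replicate 4, and 8 and 10 without replicate 1. At an unadjusted p under 0.05, 8.1% of the intragenic regions were higher at 6 months (6.17% of all 12536) and 4.47% lower (6.67%). At 12 months the shares were 5.58% (5.41%) and 4.1% (4.61%), and at 18 months 7.03% (6.6%) and 5.92% (6.9%).

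Between the sexes, 1 intragenic region was called. The region of Syp (synaptophysin, a vesicle protein) on X was at 55 to 93.8 (median 76.9) in 12 female libraries and at 93.4 to 99.8 (median 97.1) in 8 male ones (adjusted p = 0.00379, limma with age in the fit). The 2 groups overlapped slightly. Lower in females was called for 0.0957% of all 12536 regions, which are 12 regions, all on X. Higher in females was called for 0 intragenic regions and 0% of all, with 85 intragenic regions (2.68%, where all gave 2.92%) at an unadjusted p under 0.05.

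The X regions were picked out after their values had been seen. Of 34 intragenic regions on X, 32 were lower in females by fold, with library medians of 40.1 to 61 in females and 52.3 to 69.4 in males. By pileup 28 of the 34 were higher in females, with library medians of 37.7 to 51.5 against 26.6 to 44.1. The local background of these regions relative to the library's implied background was 1.41 to 2.12 in females and 1 to 1.68 in males. That of the 3140 on other chromosomes was 1.42 to 2.25 and 1.28 to 2.3. By pileup 4 intragenic regions (0.126%) were called higher in females, 2 of them on X, where all regions gave 12 (0.0957%), 9 of them on X, and Syp was not called (adjusted p = 0.913, limma).

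Over all intragenic regions the median percentile was 38.1 ± 1.73 at an age of 2 months (n = 4), 40.1 ± 2.17 at one of 6 months (n = 5), 38.1 ± 0.92 for 12 months (n = 5) and 38.5 ± 2.02 for 18 months (n = 6, SD throughout), with no trend past the spread over 20 libraries (Pearson r = -0.104, permutation p = 0.658, adjusted 0.658 over 3 measures, Spearman's rank correlation -0.0668, p = 0.777). The share of intragenic regions with a peak among a library's strongest 19749 by fold, the length of the shortest list, was 94.3% ± 2.46 at 2, 98.2% ± 1.43 at 6, 94.5% ± 1.54 at 12 and 91.1% ± 3.01 at 18 months. For it r was -0.572 (permutation p = 0.00819, adjusted 0.0246) and Spearman's rank correlation -0.522 (permutation p = 0.0196). Without 2 of the 4 libraries of 2 months, which tie as farthest from the median age, r was -0.559. Inside set 2 r was -0.68 and within set 3 it was 0.876, and ranking by -log10 q gave -0.0391 (permutation p = 0.878). With set means removed r was -0.18. The share depends on how long a list is: the shortest, 6 months replicate 3, is at 100% by construction, and the longest, 18 months replicate 2 with 38040 peaks, had the lowest share, 86.5%. The lists of 6 months held 19749 to 26644 peaks and those of 18 months 25662 to 38040, while those of 2 months held 21146 to 35109. The longest of 2 months, replicate 4, had a share of 91.8%. How far this measure follows age or list length was not tested.

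The median pileup over the library's implied background did not pass the test against age. It was 18.6 ± 3.12, 15.3 ± 4.91, 14.8 ± 1.35 and 22.4 ± 1.83 at 2, 6, 12 and 18 months, with r = 0.415 (permutation p = 0.0693, adjusted 0.104), Spearman's rank correlation 0.427 (permutation p = 0.0611) and r = 0.399 with the same 2 libraries left out. Within set 2 r was 0.743 and within set 3 it was -0.528. Always-open regions at gene ends and between genes gave r = 0.348 and 0.476 with age, values on both sides of that of the intragenic regions.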

How the data were processed

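The deposited data are 1 peak list per library. Per the submitters' processing notes, FastQC, Trim Galore 0.4.2, Picard 1.115, MACS2 2.1.0 and build mm10 were used. The aligner is not given in the sources used here. In these lists the authors give each peak a fold ratio of its summit over local background and a -log10 p and -log10 q. The deposited score of each peak was not used.

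Fold, -log10 p and MACS2's Poisson model give back the summit pileup as a whole number within 0.01, except for 4 of 250720 values. A low percentile of the local background over all peaks of a library is called its implied background. A region's local background is given as a ratio to it. Where a library had several peaks in a region, its strongest was used. The total read count of each library is not used here, so the number of peaks and the pileup stand for depth.

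Fold was ranked within each library over the 12536 always-open regions under 2000 bp wide, turned into normal scores and fitted with limma 3.58.1 (R 4.3.3), with Benjamini-Hochberg adjustment over all of them and calls at an adjusted p of 0.05. Age was fitted in months over all 20 libraries, or as a factor for single ages and for sex. Classes were compared by sign-flip permutation over libraries and summaries by permuting age, with 100000 resamples (Python 3.11.15, scipy 1.17.1). The scripts were tested on simulated data. Replicates are separate libraries, numbered here by record order, so a number pairs nothing.

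Genes were named by a rule: the 10 regions per direction with the smallest p for age and 5 for 18 against 2 months and sex, the 10 highest, 5 lowest, 5 least and 5 most variable by rank, the genes with most regions overall and per list, 16 set genes, and those at each threshold. The other genes named beside them were chosen after their values were seen. The regions and lists were chosen with earlier results of these data known. Starts come from a RefSeq table for GRCm38.p6, read on chromosomes other than 18, and the table lacks some host genes. Sequence at summits was not analysed here, so motifs there were not searched. Alternatives tried were ranking by -log10 q, centred log2 fold from the deposited fold, library set, implied background or sex in the fit, any width, 50% cover, a -log10 q of at least 5 and leaving out each library. Ranking by pileup was added after seeing the data. The region just outside the distance limit, 1 junction gene and 1 gene list are not reported here.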

Additional observations from a re-analysis of the deposited data

Results flagged for a closer look

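In 92 groups of libraries of 1 age, 7 held a library far from the others by Dixon's test, where chance gives about 5% of groups. Most groups were the percentiles by fold of a region named for its age trend. The rest were the summaries over all intragenic regions, and all 7 came from the named regions. In Tm4sf1, 6 months replicate 4 was at 42.2 and the others of that age at 6.92 to 15.2, and 18 months replicate 6 was at 55.3 and the others at 37.9 to 43.4. In Clta, 12 months replicate 3 was at 44.9 and the others at 82.5 to 90.2. In Usp42, 18 months replicate 3 was at 61.8 and the others at 76.3 to 83.2. In Nek6, 12 months replicate 1 was at 19.5 and the others at 64.8 to 80.1. In Slc2a12, 2 months replicate 4 was at 81.1 and the others at 96.7 to 99.7. In the region of Sntg1 of 887 bp, 18 months replicate 5 was at 12 and the others at 0.275 to 2.57.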

How the results depend on the processing

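The 3174 intragenic regions became 838 when peaks had to cover 50% of a region, and 3175 to 3799 when 1 library was left out, most without 6 months replicate 3. The 59 called with age became 139 by centred log2 fold, 1 with library set in the fit, 19 at 50% cover and 39 at a -log10 q of at least 5. The 40 higher became 22 by -log10 q, 1 with library set and 12 at 50% cover. The 19 lower became 29 by -log10 q, 83 by centred log2 fold, 0 with library set, 7 at 50% cover, 12 at a -log10 q of at least 5 and 36 by pileup. The 11 called at 6 months became 2 by -log10 q, 2 at 50% cover and 4 by pileup. The 2 called at 12 months became 12 by -log10 q, 0 by centred log2 fold, 10 with library set, 0 with implied background, 1 at a -log10 q of at least 5, 1 with sex and 30 by pileup. The 13 called at 18 months became 27 by -log10 q, 21 by centred log2 fold, 25 with library set, 5 at 50% cover and 50 by pileup. Counts over all 12536 regions moved too. With age, 151 higher and 108 lower became 199 and 344 by centred log2 fold and 69 and 109 by -log10 q. At 12 months 1 and 7 became 9 and 18 by -log10 q and 34 and 42 by pileup. At 18 months 25 and 24 became 38 and 67 by -log10 q, 62 and 37 with library set and 75 and 106 by pileup. The 1 intragenic region called between the sexes became 0 by -log10 q, 3 with implied background, 2 at a -log10 q of at least 5 and 4 by pileup. Against regions between genes, the width difference was -1.62 bp at 50% cover (permutation p = 0.432) and the percentile difference reversed to 1.31 by pileup. The share among the strongest peaks had r = -0.0391 by -log10 q, and the larger region of Slc6a6 reversed to a slope of 0.0248 by pileup. The cause of these moves was not tested. Leaving out 1 library gave 17 to 229 calls with age (11 to 121 higher, 6 to 108 lower), 0 to 18 at 6, 0 to 9 at 12 and 3 to 49 at 18 months, and 1 to 2 between the sexes. It gave r of -0.245 to -0.0241 for the median percentile, -0.67 to -0.515 for the share among the strongest peaks and 0.353 to 0.511 for pileup over background, which passed the threshold without 2 months replicate 2 (0.511), 2 months replicate 4 (0.493) or 6 months replicate 3 (0.488). Of the values of single regions and other gene lists, 222 kept their direction and side of the threshold, 48 lost the threshold and 2 moved under the other alternatives, and 570 kept it and 50 lost it when 1 library was left out. Libraries of different ages or sexes could not be paired, since the labels link none of them. The comparisons between classes of regions were paired within each library. Depth limits the weakest regions: the lowest pileup of the region of Atp6v0a2 was 9.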
